A study of Danio rerio with 10 samples.

Results

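TPM3(E151G) zebrafish embryos that were kept in l-carnitine were compared with TPM3(WT) embryos to describe what still differed under treatment. The comparison used 2 libraries, 1 of l-carnitine-treated TPM3(E151G) embryos and 1 of untreated TPM3(WT) embryos, out of 10 libraries in the series. Of 32265 annotated genes, the 17731 with an FPKM (sequenced fragments scaled by transcript length and library size) reaching 1 in either or both libraries were compared. The value given for a gene is the log2 ratio of FPKM + 1, l-carnitine over TPM3(WT), so that a gene at the same level has 0 and a 2-fold difference is 1 or -1. With 1 library per condition there is no replicate error and no test, and every difference given is one between these 2 libraries.

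All fish were of the AB strain and carried a human TPM3 transgene, which encodes a slow-muscle tropomyosin, under a muscle myosin light chain promoter, with a myl7-driven EGFP heart marker on the construct. TPM3(WT) fish are therefore also transgenic and carry the normal human sequence. In TPM3(E151G) fish the sequence encodes a glycine in place of a glutamate. The paper measured human TPM3 mRNA by qRT-PCR in these lines. No edit of the zebrafish tropomyosin genes is described for either. The labels give whole embryos aged 2 days with l-carnitine as the treatment of 1 library and none for the other 3 embryo libraries, which are TPM3(WT), TPM3(E151G) and TPM3(E151A). The treatment protocol in the labels runs from 28 hours to 7 days after fertilization and the extraction protocol speaks of muscle, so the age cannot be settled. Markers of epidermis, lens, neurons and blood were abundant in these libraries, as the labelled whole embryo would have them and dissected muscle would not. The number of embryos pooled was not given in the sources used here.

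l-Carnitine carries long-chain fatty acids across the inner mitochondrial membrane, where they are oxidized. The vertebrate liver secretes most plasma proteins, among them clotting factors, complement, transferrin and lipoproteins, and it makes glucose and breaks down amino acids. In zebrafish the liver forms from the gut endoderm and takes up these functions as it matures, while in the young embryo the yolk syncytial layer also makes lipoproteins.

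Most genes lay close to TPM3(WT). The median log2 ratio over all 17731 genes was 0.01, the quartiles were -0.11 and 0.12, and 16827 genes (94.9%) were within 1.5-fold. The 904 genes (5.1%) beyond 1.5-fold divided into 634 higher (3.58%) and 270 lower (1.52%) with l-carnitine. The 2-fold limit was reached by 418 genes (2.36%), of which 350 were higher (1.97% of all genes) and 68 lower (0.384%). A difference of 4-fold or more was found for 101 higher and 9 lower genes. The FPKM sum over all genes was 605520 with l-carnitine and 575410 in TPM3(WT), and scaling both libraries to the same sum left 323 higher and 75 lower genes. The untreated TPM3(E151G) and TPM3(E151A) libraries had larger sums, 739920 and 657740, and their FPKM values and log2 ratios are given unscaled.

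Low levels added to both counts. When both libraries had to reach an FPKM of 1, 16720 genes were left, of which 200 were higher and 27 lower, a filter chosen after the data were seen. Among the higher genes 25 were listed at 0 in TPM3(WT), and among the lower genes 16 were listed at 0 with l-carnitine. For these no fold is given. Among 663 genes with a mean FPKM of 100 or more, 10 were higher and 2 lower. At the FPKM minimum, cbln2a lay just inside at 1.00 with l-carnitine and dcdc2b just outside at 0.999. At the 2-fold limits, esr2b (1.00) and rsg1 (-1.01) lay just inside, and CR932000.2 (0.997) and BX649484.1 (-0.997) just outside.

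The libraries held markers of the tissues of a whole embryo. Muscle (acta1b, 2494 with l-carnitine and 2351 in TPM3(WT)), neurons (snap25a, 143 and 126), epidermis (krt4, 4058 and 3887) and lens (cryba2a, 473 and 407) were represented at similar FPKM in both. Germ cell and oocyte markers (ddx4, nanos3, zp3b, zar1) were below 1 in both libraries, as were vil1 of the intestine and the hatching gland gene ctslb. Heart markers were at 27.2 and 38.7 (myl7), 3.82 and 3.55 (cmlc1) and 1.53 and 3.12 (nppa). Other markers that differed were alas2 of red cells (30.9 and 16.2), ela2 of the exocrine pancreas (1.58 and 0.777) and mpeg1.1 of macrophages (1.63 and 1.01). The liver markers fabp10a, tfa and hpx differed by more than any of these.

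**Figure D1:**
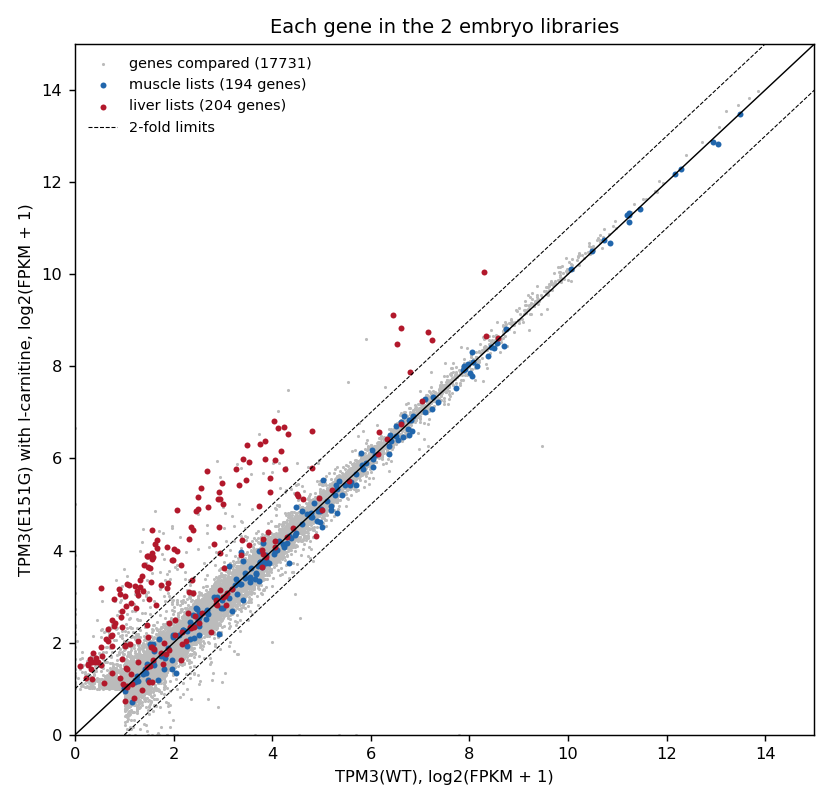
Each of 17731 genes by its log2(FPKM + 1) in the TPM3(WT) library (horizontal) and in the l-carnitine TPM3(E151G) library (vertical), with 204 genes of the liver lists in red, 194 genes of the muscle lists in blue and dashed lines at 2-fold. Many of the red points lie above the upper line, 112 of 204, whereas all blue points lie between the lines.

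Genes of the liver were the most frequent group above TPM3(WT), with 52 of the 100 genes furthest above it and 6 of the first 20. Over the liver lists (plasma proteins, complement, lipoproteins, vitellogenins, metabolic enzymes and cytochromes P450) 204 genes were compared, 112 were 2-fold or more higher and none was 2-fold or more lower. They made up 32.0% of the 350 higher genes. The lists were chosen with earlier results of these data known, and some members passed the minimum only through the treated library. With an FPKM of at least 1 required in both libraries, the medians were 2.09 for plasma proteins, 1.75 for complement and 0.92 for lipoproteins. They were 1.52 for vitellogenins, 0.55 for metabolic enzymes and -0.01 for cytochromes P450. The liver lists took 1.31% of the FPKM sum with l-carnitine and 0.565% in TPM3(WT). The untreated mutant libraries were at 0.582% in TPM3(E151G) and 0.536% in TPM3(E151A), close to TPM3(WT). In a library of whole animals, more liver cells and more RNA per liver cell cannot be told apart. Genotype and treatment differ together between the libraries compared, so their shares cannot be told apart either. Developmental stage and expression in the yolk syncytial layer were not tested. Outside the liver lists, 238 of 17527 genes (1.36%) were 2-fold or more higher. Over all genes 1.97% were 2-fold or more higher and 0.384% lower, the shares to set beside the counts of each list.

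Plasma proteins and clotting factors gave the largest count of any list. Of 56 genes compared, 44 were 2-fold or more higher, none was 2-fold or more lower, and 54 were above 0. The median log2 ratio was 2.01, with quartiles of 1.18 and 2.27, against 0.01 over all genes. Against the same TPM3(WT) library, the medians of these genes were 0.32 in untreated TPM3(E151G) and 0.20 in TPM3(E151A). As a share of the FPKM sum the list stood at 0.394% with l-carnitine and at 0.112%, 0.116% and 0.0978% in TPM3(WT), TPM3(E151G) and TPM3(E151A).

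tfa (transferrin, the iron carrier of plasma; GRCz11 chromosome 2, 17112043 to 17123598) had an FPKM of 555 with l-carnitine, 85.9 in TPM3(WT), 125 in TPM3(E151G) and 100.4 in TPM3(E151A). hpx, hemopexin, which binds free heme, had 77.2 with l-carnitine against 10.2 in TPM3(WT), 16.0 in TPM3(E151G) and 11.9 in TPM3(E151A). In both genes the treated library stood alone and the other 3 lay near each other. The fetuin genes ahsg2 and ahsg1, which encode secreted mineral-binding proteins, had the largest log2 ratios of the list, both at 2.82. ahsg1 had an FPKM of 40.1 with l-carnitine and 4.84, 9.12 and 6.06 in TPM3(WT), TPM3(E151G) and TPM3(E151A). fetub, of the same family, had 100.4 with l-carnitine and 16.4 in TPM3(WT).

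The 3 fibrinogen chains, which polymerize into the clot, were all 2-fold or more higher. fgg had an FPKM of 110.8 with l-carnitine, 15.4 in TPM3(WT), 23.1 in TPM3(E151G) and 15.8 in TPM3(E151A). fga and fgb had log2 ratios of 2.43 and 2.22. Other genes of the clotting system shared the direction. f2 (prothrombin) had an FPKM of 28.0 against 4.46, and plg (plasminogen, which dissolves clots) 34.7 against 4.65, while f10, f5, f7i and f9b had log2 ratios between 1.12 and 2.01. Protease inhibitors stood beside them: serpina1 (alpha-1-antitrypsin) had an FPKM of 82.7 with l-carnitine and 13.4 in TPM3(WT), and serpinc1 (antithrombin) 33.7 and 6.47.

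Carriers of hormones and vitamins were also higher. rbp4, the retinol carrier, had an FPKM of 382 with l-carnitine, 149.5 in TPM3(WT), 194 in TPM3(E151G) and 107 in TPM3(E151A). shbg (sex hormone-binding globulin) and gc (vitamin D-binding protein) had log2 ratios of 2.25 and 2.23. ttr (transthyretin) was at a low level, with an FPKM of 2.75 against 0.439. The list was not uniform. pros1 (protein S), sepp1a (a selenium carrier) and serpina10a lay between 0.04 and 0.11, and serpinf1, an inhibitor-family protein made by many tissues, was the lowest member at -0.56.

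**Figure D2:**
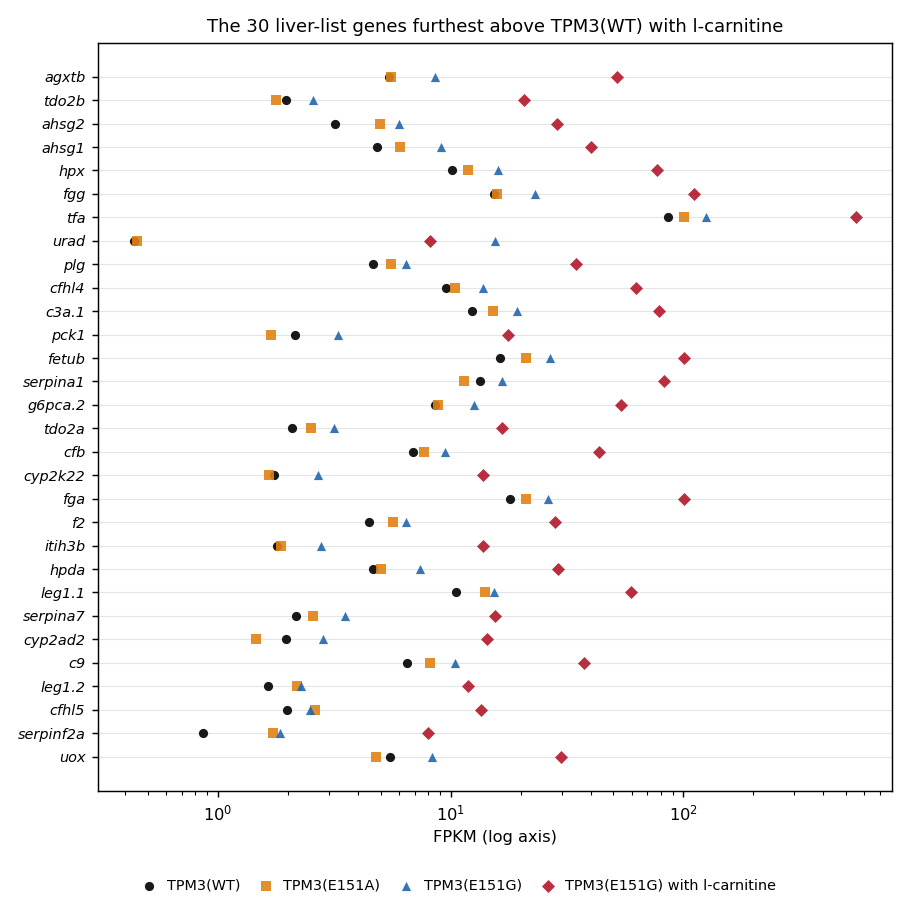
FPKM on a log axis for the 30 genes of the liver lists with the largest log2 ratio, with 1 point for each of the 4 embryo libraries. In 29 of the 30 genes the l-carnitine library (red diamonds) lies to the right of the other 3. In the remaining gene, urad, the untreated TPM3(E151G) library is higher. The genes were picked for an l-carnitine value above the TPM3(WT) value, so nothing is read from this order.

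Complement, the plasma cascade that marks and lyses microbes, had a median log2 ratio of 1.58 over 28 genes, with 20 genes 2-fold or more higher and none 2-fold or more lower. The medians in untreated TPM3(E151G) and in TPM3(E151A) were 0.23 and 0.12. The central component c3a.1 had an FPKM of 78.8 with l-carnitine, 12.4 in TPM3(WT), 19.2 in TPM3(E151G) and 15.2 in TPM3(E151A). cfb, the protease of the alternative pathway, had 43.5 against 6.90, and the regulator-like cfhl4 62.6 against 9.58. Among the terminal components that form the membrane pore, c9, c5, c8a and c8g had log2 ratios of 2.35, 2.16, 1.74 and 1.52, whereas c6 (0.04) and c7a (-0.21) were near TPM3(WT). masp1, which starts the lectin pathway, was also near TPM3(WT) at 0.12, and masp2 was at 1.45.

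Lipoprotein genes were divided. Of 20 genes compared, 9 were 2-fold or more higher, none was 2-fold or more lower, and 8 were within 1.5-fold. apoa2, a protein of high-density lipoprotein, had an FPKM of 1056 with l-carnitine, 312 in TPM3(WT), 406 in TPM3(E151G) and 354 in TPM3(E151A). apoa1b had 457 with l-carnitine against 96.5 in TPM3(WT), while its paralog apoa1a had 394 against 382. apobb.1, the backbone of very-low-density lipoprotein, was at 70.5 against 17.1, and lipca (hepatic lipase) and cetp (cholesteryl ester transfer protein) had log2 ratios of 2.16 and 1.72. The apolipoprotein E genes apoeb and apoea (0.19 and -0.12), the apolipoprotein A-IV genes apoa4b.1 and apoa4b.2 (0.44 and -0.01) and pltp (0.02) stayed under the 2-fold limit.

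All 7 vitellogenin genes, which encode egg yolk precursors, were above 0, and 6 were 2-fold or more higher, with a median of 1.52. vtg1 had an FPKM of 430 with l-carnitine, 142 in TPM3(WT), 184 in TPM3(E151G) and 126 in TPM3(E151A). vtg2 had 95.7 against 26.9. vtg1, vtg4, vtg5 and vtg7 share a locus of 8 gene rows on chromosome 22, so that reads of near-identical copies could be divided among them. The estrogen receptor gene esr2b was at 1.65 against 0.321.

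Metabolic enzymes of the liver were higher in some pathways and near TPM3(WT) in others. Of 53 genes compared, 21 were 2-fold or more higher, none was 2-fold or more lower, and 25 were within 1.5-fold, with a median of 0.64. The glucose-making enzymes were among the higher ones. g6pca.2, the glucose-6-phosphatase subunit that releases glucose, had an FPKM of 53.8 with l-carnitine, 8.58 in TPM3(WT), 12.6 in TPM3(E151G) and 8.82 in TPM3(E151A). pck1 (phosphoenolpyruvate carboxykinase) had 17.7 against 2.15 and fbp1b (fructose-bisphosphatase) had a log2 ratio of 2.06, whereas its paralog fbp1a was at -0.14.

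Enzymes of glyoxylate, tryptophan and tyrosine breakdown stood beside them. agxtb (alanine-glyoxylate aminotransferase) had the largest log2 ratio of the liver lists, 3.05, with an FPKM of 52.0 with l-carnitine, 5.41 in TPM3(WT), 8.60 in TPM3(E151G) and 5.52 in TPM3(E151A). tdo2b and tdo2a (tryptophan 2,3-dioxygenase) were at 2.87 and 2.51, and the tyrosine pathway genes hpda, tat and hgd at 2.41, 2.02 and 1.54. Urate breakdown gave uox (uricase) at an FPKM of 29.7 against 5.46 and urad, the next step, at 8.16 against 0.436. urad was at 15.5 in untreated TPM3(E151G) and 0.447 in TPM3(E151A), so that both TPM3(E151G) libraries stood apart from the other 2. The urea cycle genes otc (0.06), cps1 (0.19) and asl (-0.07) and the methionine cycle genes bhmt (0.32) and ahcy (0.21) were under the 2-fold limit.

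Among cytochromes P450, 12 of 40 genes were 2-fold or more higher, 27 were within 1.5-fold, and the median was 0.09. Several of the higher genes, such as cyp4v7 and cyp2p9, were below an FPKM of 1 in TPM3(WT). These passed the minimum only through the treated library. With an FPKM of at least 1 required in both libraries, 26 genes were left and the median was -0.01. cyp2k22 and cyp2ad2, of the drug-metabolizing family 2, had FPKM values of 13.8 and 14.3 with l-carnitine and 1.74 and 1.96 in TPM3(WT). cyp24a1, which degrades vitamin D, was at 7.03 against 1.02. Retinoic acid-degrading cyp26b1 (0.06) and bile acid gene cyp7b1 (-0.53) were not among them.

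Transcription factors of the liver were also looked at. They were chosen after their values were seen. Of 14 names, 11 were compared and none was 2-fold apart, where 2.36% of all genes were. This count is near that share, so nothing is read from it. The log2 ratios ran from -0.26 (hnf1ba) to 0.52 (hnf4a). hnf4a had an FPKM of 2.15 with l-carnitine and 1.20 in TPM3(WT), foxa3 2.90 and 3.12, and cebpa 3.40 and 4.03. Several of these factors are also made outside the liver.

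fabp10a, the liver-type fatty acid-binding protein and a marker of hepatocytes in zebrafish (chromosome 16, 52626256 to 52631239), had an FPKM of 388 with l-carnitine, 58.5 in TPM3(WT), 98.6 in TPM3(E151G) and 61.1 in TPM3(E151A). It was the only one of 9 fatty acid-binding protein genes that was 2-fold or more apart. The heart- and muscle-type fabp3 had 250 against 244, the brain-type fabp7a 839 against 768, and the intestinal fabp2 5.87 against 5.80.

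ucp1, an uncoupling protein of the inner mitochondrial membrane, had an FPKM of 177 with l-carnitine, 19.0 in TPM3(WT), 31.4 in TPM3(E151G) and 27.7 in TPM3(E151A). Its log2 ratio of 3.15 was the sixth largest of all genes, and the row shares its locus with 6 other gene rows. upp2 (uridine phosphorylase) was at 21.3 against 1.59 and cbln8, of the secreted cerebellin family, at 60.6 against 6.31. Other genes outside the lists, chosen after their values were seen, pointed the same way. ces2 (a carboxylesterase) had 51.4 against 14.9, gpx4a (which reduces lipid peroxides) 186 against 77.4, and dio1 (which activates thyroid hormone) 10.3 against 2.64.

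Organs next to the liver were mixed. Of 13 exocrine pancreas genes 6 were 2-fold or more higher, where 1.97% of all genes were. Their median was 0.99, but their levels were low. The trypsin-family gene prss59.1 had an FPKM of 4.63 with l-carnitine, 0.355 in TPM3(WT), 0.713 in TPM3(E151G) and 0.415 in TPM3(E151A). By contrast, ptf1a, the transcription factor of acinar cells, had 12.1 with l-carnitine and 11.2 in TPM3(WT). With an FPKM of at least 1 required in both libraries the pancreas median was 0.31. Among 12 enterocyte genes only rbp2a, a cellular retinol-binding protein, was 2-fold or more higher (58.8 against 16.6), and agr2 and lgmn were within 1.5-fold. Of the islet genes, ins was at 4.35 against 4.77 and 13 of 14 were within 1.5-fold, near the 94.9% of all genes.

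The red cell and leukocyte lists held a smaller share of 2-fold higher genes than any liver list. Of 23 globin and red cell genes 2 (8.70%) were 2-fold or more higher, where 1.97% of all genes were. Both are rows named hbba1, an adult beta globin, at 6.57 against 0.913 and at 2.70 against 0.440. They share a locus of 4 gene rows, among which reads could be divided. The abundant embryonic globins hbae3 (1316 against 990.3) and hbbe1.1 (1135 against 890.3) were within 1.5-fold, and alas2, the first enzyme of heme synthesis in red cells, was at 30.9 against 16.2. Among 19 leukocyte genes the median was 0.34, and 3 (15.8%) were 2-fold or more higher. All genes counted as 2-fold higher in the red cell and leukocyte lists were below an FPKM of 1 in TPM3(WT). They passed the minimum only through the treated library, so these shares depend on the filter. With an FPKM of at least 1 required in both libraries, the red cell and leukocyte medians were 0.15 and 0.22. The progranulins grn2 and grn1 and the invariant chain gene cd74b were 2-fold or more higher, at 8.02, 3.18 and 1.98 against 0.919, 0.602 and 0.272, while lyz (lysozyme of myeloid cells; 45.8 against 32.4) and mpx (neutrophil peroxidase; 1.45 against 1.64) were not.

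In the acute phase and interferon list, 10 of 22 genes were 2-fold or more higher, where 1.97% of all genes were. All 10 encode secreted proteins, many of them also in the plasma protein and complement lists. They were the C-reactive protein genes crp3 and crp, 4 c3a genes, cfb, 2 rows named hp (haptoglobin) and hamp, which encodes the iron hormone hepcidin. The interferon-inducible genes mxc (0.64) and ifitm1 (0.67) were under the limit, and the signalling genes socs3b (0.11), stat1a (0.04) and nfkbiab (-0.13) were near TPM3(WT). crp3 had an FPKM of 91.3 with l-carnitine and 12.2, 16.9 and 11.8 in TPM3(WT), TPM3(E151G) and TPM3(E151A). The rows of crp3 and rbp4 lie at loci shared with other gene rows, among which reads could be divided.

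**Figure D3:**
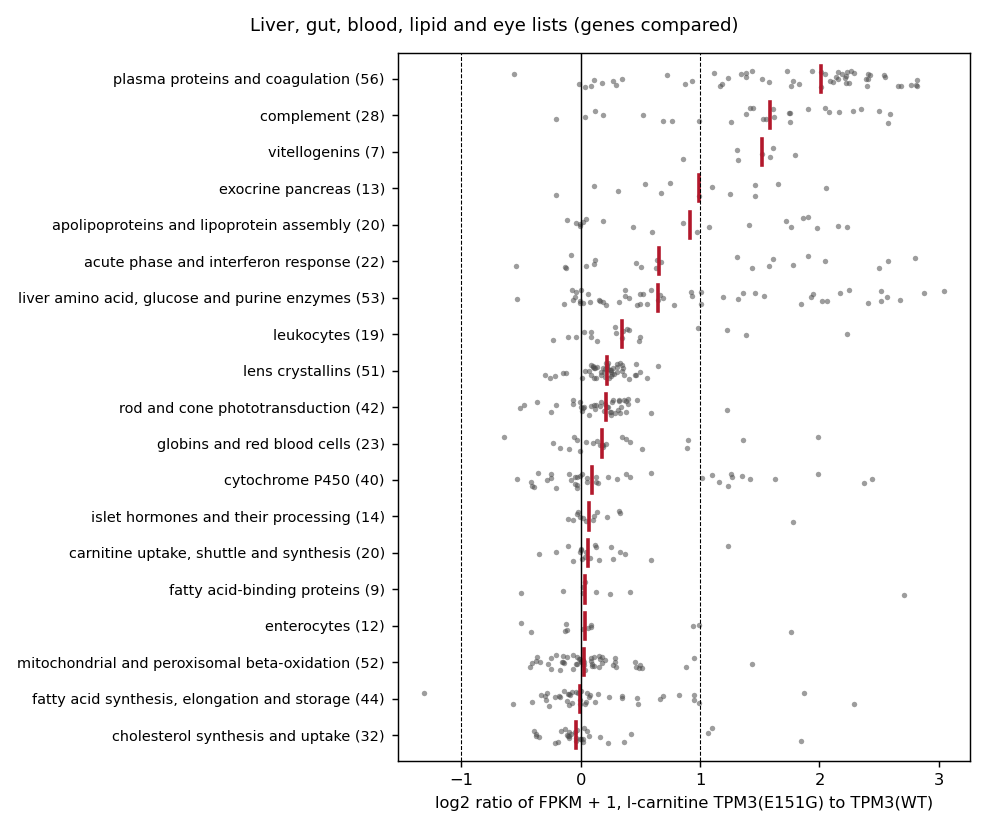
Log2 ratios of l-carnitine TPM3(E151G) to TPM3(WT) for each gene (grey points) and the median (red bar) of the liver, gut, blood, lipid and eye lists, with the number of genes compared. The plasma protein median is at 2.01, the complement median at 1.58 and the beta-oxidation median at 0.03, and dashed lines mark 2-fold.

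The carnitine genes were spread about as all genes were. Of 20 genes for carnitine uptake, shuttle and synthesis 18 were within 1.5-fold, against 94.9% of all genes, with a median of 0.06. The shuttle genes cpt1ab (21.5 against 20.2), cpt2 (8.83 against 7.98) and slc25a20, the carnitine-acylcarnitine translocase (15.1 against 15.2), had nearly equal FPKM values in both libraries. cpt1b, the muscle form of carnitine palmitoyltransferase, was just beyond 1.5-fold, at 5.66 against 3.43. The only gene 2-fold or more apart was slc25a48, a mitochondrial carrier. It had an FPKM of 23.6 with l-carnitine, 9.46 in TPM3(WT), 9.48 in TPM3(E151G) and 8.43 in TPM3(E151A).

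Beta-oxidation had a median of 0.03 over 52 genes, of which 49 were within 1.5-fold, a share near that of all genes. oxct1b, which activates ketone bodies for use, was the only gene 2-fold or more apart (4.74 against 1.13). The peroxisomal enzyme ehhadh and the fatty acid importer slc27a2a were below the limit at 0.95 and 0.88, and acadm (37.4 against 30.5) and hadhb (55.8 against 52.3), both enzymes of the mitochondrial spiral, were within 1.5-fold.

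Fat synthesis and storage held genes on both sides. thrsp, a regulator of lipogenesis, had an FPKM of 12.4 with l-carnitine, 1.73 in TPM3(WT), 3.47 in TPM3(E151G) and 5.31 in TPM3(E151A). fads2, a fatty acid desaturase, had 22.4 against 5.41. plin2, a coat protein of lipid droplets, was lower, at 0.762 with l-carnitine, 3.39 in TPM3(WT), 0.475 in TPM3(E151G) and 0.281 in TPM3(E151A), so that TPM3(WT) stood above the 3 mutant libraries. Over the 44 genes of the list the median was -0.01. In the cholesterol list, ldlra (the lipoprotein receptor; 7.38 against 1.34), cyp8b1 (bile acid synthesis) and soat2 (cholesterol esterification) were 2-fold or more higher, and the synthesis genes hmgcra, fdps and idi1 lay between -0.39 and 0.07.

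Genes of skeletal and heart muscle lay close to TPM3(WT). Of 194 genes in the muscle lists 190 were within 1.5-fold and none was 2-fold or more apart, with a median of -0.04, where 94.9% of all genes were within 1.5-fold and 2.36% were 2-fold or more apart. The share within 1.5-fold is thus near that of all genes. The heart genes among them had a median of -0.16 over 13 genes. The more abundant of the rows named myhz1.1, a fast myosin, had an FPKM of 1100.0 against 1073 and the myosin light chain mylpfa 4993 against 5001. Troponins and tropomyosins had a median of -0.07 over 22 genes, and tnnc2 (troponin C) had an FPKM of 2584 with l-carnitine, 2405 in TPM3(WT), 3636 in TPM3(E151G) and 2871 in TPM3(E151A). In this gene the untreated TPM3(E151G) library was the highest. The excitation-contraction list, which holds calcium release and buffering genes, had a median of -0.07 over 50 genes, with pvalb2 (parvalbumin, the calcium buffer of fast fibres) at 7283 against 8491.

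Energy genes were similar. The median was 0.05 over 95 nuclear subunits of oxidative phosphorylation, of which 93 were within 1.5-fold, and cox6a2 (3.76 against 0.929), a subunit of cytochrome c oxidase, was the exception at the 2-fold limit. Of the 13 protein-coding genes of the mitochondrial genome all were within 1.5-fold, with a median of 0.16. Over all genes 94.9% were within 1.5-fold, so both counts are near that share. mt-co1 had an FPKM of 16045 against 14789. Among 54 glycolysis genes 5 (9.26%) were 2-fold or more higher, where 1.97% of all genes were, and 49 were within 1.5-fold. The higher ones included pklr (the liver form of pyruvate kinase, 14.9 against 3.18), pygl (liver glycogen phosphorylase, 9.50 against 2.80), slc2a2 (the liver glucose transporter, 5.12 against 1.87) and ldhbb (a lactate dehydrogenase, 26.9 against 4.60). gapdh, a shared enzyme of the pathway, was at 935 against 1029.

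**Figure D4:**
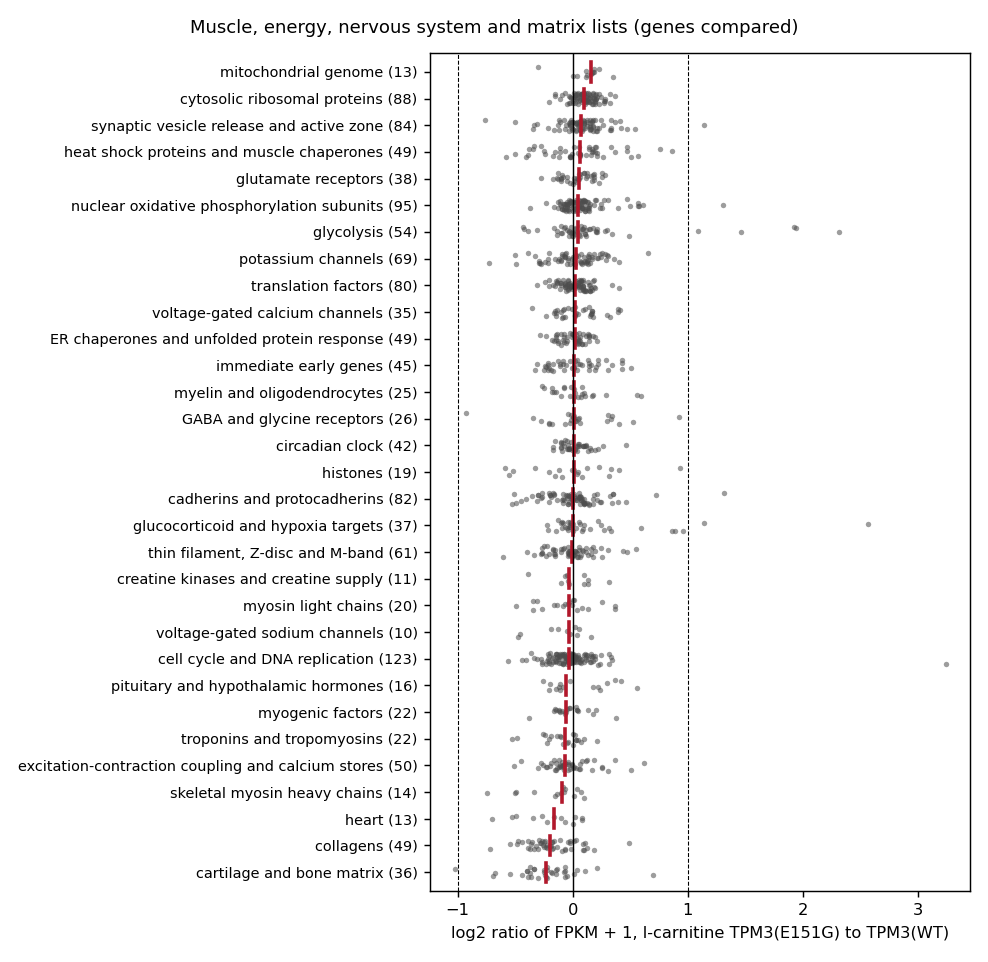
Log2 ratios of l-carnitine TPM3(E151G) to TPM3(WT) for each gene (grey points) and the median (red bar) of the muscle, energy, nervous system, matrix, translation, stress and proliferation lists. The medians run from -0.23 for cartilage and bone matrix to 0.16 for the mitochondrial genome, and single genes lie beyond the dashed 2-fold lines.

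Genes of the nervous system were near TPM3(WT) as well. Of 303 genes compared only syt16, of the synaptotagmin family, was 2-fold or more apart (3.95 against 1.24), where 2.36% of all genes were. The medians were -0.03 for 10 sodium channel, 0.02 for 35 calcium channel and 0.03 for 69 potassium channel genes, and the signs of the latter pair were negative at equal FPKM sums. Against the same TPM3(WT) library, the medians were -0.61, -0.31 and -0.35 in untreated TPM3(E151G) and -0.44, -0.35 and -0.35 in TPM3(E151A). scn8aa, a sodium channel of neurons, had an FPKM of 18.9 with l-carnitine, 18.3 in TPM3(WT), 11.4 in TPM3(E151G) and 12.97 in TPM3(E151A). For the pan-neuronal elavl3 the values were 379, 338, 226 and 410 in the same order.

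A list of genes tested by qRT-PCR in l-carnitine embryos was taken from the study, which chose them with these libraries at hand. The list is therefore not independent of the libraries. Of its 9 gene rows 7 were compared, and all 7 were within 1.5-fold of TPM3(WT), with a median of 0.01. Over all genes 94.9% were within 1.5-fold, so this count is near the share of all genes. lin28b, an RNA-binding protein of early development, was at 0.16 and bsnb, a scaffold of the presynaptic active zone, at 0.33. Of 11 compared genes of the wider embryo qRT-PCR list, 2 were 2-fold or more below TPM3(WT), where 0.384% of all genes were. The study drew these genes too from those that differed in its sequencing, so this list is not independent either. abcc6a, a transporter of the ABC family, had an FPKM of 0.367 with l-carnitine, 1.81 in TPM3(WT), 0.445 in TPM3(E151G) and 0.372 in TPM3(E151A). si:ch73-334d15.2 had 0.628, 2.58, 0.354 and 0.472 in the same order. In both genes the 3 mutant libraries lay together, below TPM3(WT), and given how the list was chosen nothing is read from this order.

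Connective tissue and heart were shifted by less than 2-fold. Of 49 collagen rows 9 were above 0 and the median was -0.20, and of 36 cartilage and bone matrix genes 5 were above 0 with a median of -0.23. col1a1a (type I collagen) had an FPKM of 264 against 322, col2a1a (cartilage collagen) 227 against 265 and matn1 9.69 against 12.9. hapln1b, which links hyaluronan to proteoglycans, was the only member 2-fold or more apart, with 4.63 with l-carnitine, 10.4 in TPM3(WT), 7.20 in TPM3(E151G) and 3.42 in TPM3(E151A). As a share of the FPKM sum, collagens were at 0.293% with l-carnitine, 0.354% in TPM3(WT), 0.296% in untreated TPM3(E151G) and 0.279% in TPM3(E151A), so that TPM3(WT) had the highest share. Heart genes had a median of -0.16 over 13 genes, with myl7 at 27.2 against 38.7 and nppa (natriuretic peptide) at 1.53 against 3.12.

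Genes of the eye were shifted the other way. Lens crystallins, the structural proteins of the lens, were above 0 in 46 of 51 genes with a median of 0.22, and crygm2d13 had an FPKM of 1147 with l-carnitine, 912 in TPM3(WT), 1362 in TPM3(E151G) and 695 in TPM3(E151A). Rod and cone genes had a median of 0.21 over 42 genes, and a row named impg2b, of the photoreceptor matrix, was the only one 2-fold or more higher (3.74 against 1.02). Among stage-linked genes, he1a, a hatching enzyme of the hatching gland, was at 2.37 with l-carnitine, 8.84 in TPM3(WT), 5.24 in TPM3(E151G) and 15.9 in TPM3(E151A), while klf17 of the same gland was at 4.16 against 4.46. Whether the embryos differed in developmental stage was not tested. Translation, heat shock, unfolded protein response, clock, cell cycle and Hox lists had medians between -0.03 and 0.10.

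The 68 lower genes were mostly of low level, and few of them belonged to a list. They include 52 protein-coding genes, and 5 are members of any of the 59 lists. For the 68 the median FPKM was 0.616 with l-carnitine, 3.92 in TPM3(WT), 0.909 in untreated TPM3(E151G) and 2.26 in TPM3(E151A). For the 350 higher genes the corresponding medians were 7.05, 1.34, 2.26 and 1.63. Both sets were chosen on the l-carnitine and TPM3(WT) values, which alone places other libraries between or beside them, so nothing is read from where the untreated mutants lie. Both comparisons share the TPM3(WT) library.

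slc37a4b, of the glucose-6-phosphate transporter family (chromosome 10, 9448431 to 9451615), had an FPKM of 1.55 with l-carnitine, 7.20 in TPM3(WT), 2.33 in TPM3(E151G) and 3.07 in TPM3(E151A). Another row named slc37a4b was at 30.4 with l-carnitine and 44.3 in TPM3(WT). slc5a2, a sodium-glucose cotransporter of the kidney, was at 0.125, 2.34, 0.134 and 0.0268 in the same order. ddx11 (a DNA helicase) was at 1.53, 5.92, 1.92 and 3.98. In these 3 genes TPM3(WT) was the highest library. PSMB10, a subunit of the immunoproteasome, had 0.846 with l-carnitine and 0.924 in untreated TPM3(E151G), but 3.57 in TPM3(WT) and 4.17 in TPM3(E151A). A row named psmb10 on chromosome 19 was below the FPKM minimum. It was at 0.287 with l-carnitine and listed at 0 in TPM3(WT), TPM3(E151G) and TPM3(E151A). rnf150b, of the ring finger family, had a higher level, with 7.35 in the treated and 6.33 in the untreated TPM3(E151G) library against 20.9 in TPM3(WT) and 12.4 in TPM3(E151A).

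Some lower genes lay side by side in the genome. si:ch211-57b15.1 and si:ch211-57b15.2 start 9584 bp apart on chromosome 21, and the former had an FPKM of 0.122 with l-carnitine, 2.78 in TPM3(WT), 0.114 in TPM3(E151G) and 1.57 in TPM3(E151A). Both rows named si:dkey-147f3.4 start 19543 bp apart on chromosome 23 and were at 0.720 and 1.28 with l-carnitine against 5.45 and 5.81. The higher genes were spread over all chromosomes, with the largest share on chromosome 22, where 33 of 636 genes (5.19%) were 2-fold or more higher, against 0.759% to 2.91% on the others. vtg1, vtg2, ahsg1, fetub, cfhl4, cfhl5, cfh and rnasel2 are on this chromosome.

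**Figure D5:**
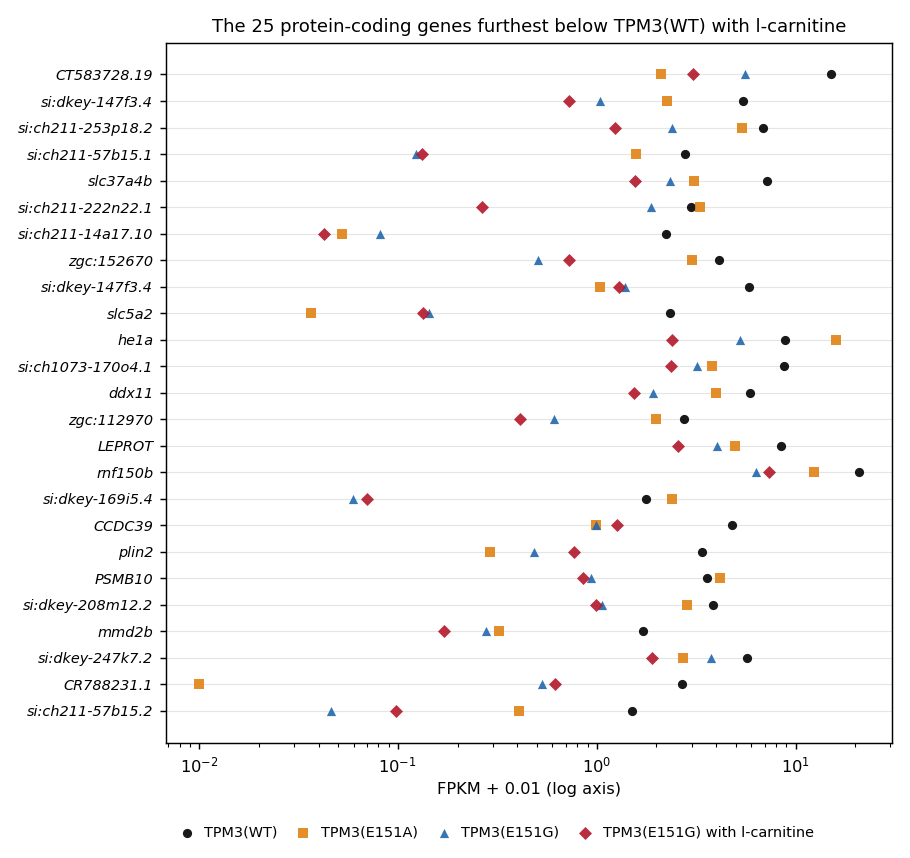
FPKM + 0.01 on a log axis for the 25 protein-coding genes with the lowest log2 ratio among those above 0 in both libraries, with 1 point for each of the 4 embryo libraries. TPM3(WT) (black circles) lies to the right of both TPM3(E151G) libraries in all 25 genes, as does slc37a4b at 7.20 against 1.55 and 2.33. The genes were picked for a TPM3(WT) value above the l-carnitine value, so nothing is read from this order.

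Small RNAs and other short rows were among the extremes in both directions. SNORD12 was listed at 0 with l-carnitine and in both untreated mutants, and at 220.4 in TPM3(WT). U5 (22.4) and the microRNA row BX927261.1 (50.6) had the same pattern, and a U6 row was listed at 0 in both TPM3(E151G) libraries, with 92.0 in TPM3(E151A) and 39.9 in TPM3(WT). On the other side, si:ch1073-140o9.2 (100.9), dre-mir-124-6 (13.9) and SNORA31 (11.6) were above 0 in the treated library alone. The transcript CABZ01079826.1 was at 75.8 with l-carnitine, 709 in TPM3(WT), 1149 in TPM3(E151G) and 0 in TPM3(E151A). These rows are short, and a few reads move their FPKM far.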

How the data were processed

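RNA of zebrafish embryos was sequenced by the authors with a strand-specific kit. Per the labels' processing notes, bcl2fastq 2.20, Trimmomatic 0.36, HISAT2, featureCounts 1.6.3 and DESeq2 1.22.2 were used with GRCz11. The tool that gave FPKM was not given in the sources used here. The authors deposited FPKM per gene with their own ratios and p-values, which were not used. 0 columns of per-sample values were left unmapped. Absolute depth is unknown. Among 1403 genes under an FPKM of 0.1 in TPM3(WT) the most frequent ratio of the libraries lay between 1.02 and 1.04, so 1 read had a similar worth in both.

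FPKM of l-carnitine TPM3(E151G) and TPM3(WT) was compared as the log2 ratio with a pseudocount of 1 and a minimum of 1 in 1 or both (Python 3.11.15, pandas 2.3.3). Values of 1e-05 were read as 0. Fold differences of 2 or more were counted. No test was possible. The steps were tested on simulated data for genes well above the FPKM minimum with large changes, so that test does not cover calls at low levels. Lists match gene symbols, share members in places, and take in col4a3bpb, which is no collagen. 3365 loci hold 10135 gene rows that share them. The named genes are the 20 largest and 20 smallest ratios, list members 2-fold apart or of highest level, genes of the study's qRT-PCR and those at the limits. Others are named after their values were seen. Members and lists were chosen with earlier results of these data known. Human TPM3 and EGFP are not among the gene rows. Some genes of the lists are not reported here by name.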

Additional observations from a re-analysis of the deposited data

How the results depend on the processing

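The counts moved with the settings for low levels and fold. A pseudocount of 0.1 gave 555 higher and 176 lower genes, a minimum of 5 gave 209 and 27, genes that share their locus with no other row gave 223 and 43, a minimum of 1 in both libraries (chosen after the data were seen) gave 200 and 27, and fold limits of 1.5 and 3 gave 634 and 270, and 171 and 21. Equal FPKM sums (323 and 75), median-of-ratios scaling (346 and 68), no minimum (350 and 68) and protein-coding genes alone (322 and 52) changed them little. The plasma protein median ran from 1.94 to 2.32 and that of complement from 1.45 to 2.38. That of the acute phase list ran from 0.12 to 1.78. At equal sums 22 list medians changed sign, all of them within 0.07 of 0. No setting could change the sign of a named gene 2-fold apart, so nothing is read from the unchanged signs. No paired analysis was possible because each condition had 1 library, and the error from depth and biological spread could not be estimated.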

Other observations

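Further genes were looked at after their values were seen. Of the antigen presentation genes, b2m, the shared light chain of class I molecules, had an FPKM of 18.7 with l-carnitine, 3.39 in TPM3(WT), 4.62 in TPM3(E151G) and 3.81 in TPM3(E151A). mhc1uma, a class I heavy chain, was at 3.50, 0.922, 3.40 and 0 in the same order, so that both TPM3(E151G) libraries were above TPM3(WT).

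Some genes outside the liver lists were high in both TPM3(E151G) libraries. A row named rrm2 (ribonucleotide reductase) on chromosome 19 had an FPKM of 28.2 with l-carnitine, 2.08 in TPM3(WT), 48.6 in TPM3(E151G) and 68.9 in TPM3(E151A), while the rrm2 row on chromosome 20 had 108 against 134. mettl10, a lysine methyltransferase gene, was at 31.1 with l-carnitine, 126 in TPM3(E151G) and 0 in the other 2 libraries. The mettl10 row lies at a locus of 3 gene rows and the chromosome 19 rrm2 row at a locus of 2, among which reads could be divided. epcam, an epithelial adhesion protein, was at 54.9, 18.3, 76.9 and 16.1 in l-carnitine, TPM3(WT), TPM3(E151G) and TPM3(E151A). sqstm1, an autophagy receptor, was at 10.5, 3.69, 14.1 and 8.03, and crcp, a subunit of RNA polymerase III, at 21.4, 7.14, 30.7 and 30.5. In rrm2, sqstm1 and crcp all 3 mutant libraries were above TPM3(WT). All 3 genes were picked for values above the same TPM3(WT) library, so nothing is read from this order.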
